A study of Mus musculus with 48 samples.

Results

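The comparison set 6 livers of male mice given a mixture of dioxin-like compounds against 6 livers of male mice given vehicle, all on the low-fat diet (LFD). Its members were the 12 libraries whose labels give male sex, LFD and one of the 2 exposures, of 48 libraries in the study. All mice were C57BL/6J, an inbred strain, and were dosed weekly for 12 weeks. Each weekly dose of the mixture held TCDD at 10 ng/kg, the dibenzofuran PeCDF at 80 ng/kg and the coplanar biphenyl PCB126 at 140 ng/kg. The other 36 libraries came from females on the LFD and from both sexes on a high-fat diet (HFD), with the same exposures. The labels give no ages, and they call the libraries of a group replicates without naming a batch, a cage or a date. Poly(A) RNA of whole liver was measured as TPM, each gene's share of all transcripts after correction for gene length. Of 49315 genes in the deposited table, the 13295 with at least 1 TPM in at least 6 of these 12 libraries were tested.

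The target of dioxin-like compounds is AhR, the aryl hydrocarbon receptor, which chaperones hold in the cytoplasm until a ligand arrives. The bound receptor enters the nucleus, pairs with its partner ARNT and binds short DNA elements whose core is GCGTG. Its best known targets in liver are the Cyp1 genes, which encode P450 enzymes that oxidize planar aromatic compounds. In rodents, lasting activation of the receptor is also known for altered lipid handling, wasting and disturbed sex-dependent gene expression in the liver.

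With the mixture 6 genes rose (0.0451% of those tested) and none fell (0%) at a limma adjusted p under 0.05, by Benjamini-Hochberg over 13295 genes. They were Cyp1a1 and Cyp1a2, the Cyp1 enzymes of liver; Htatip2, a short-chain dehydrogenase-like protein; Slc46a3, a lysosomal transporter; Cyb5a, the microsomal cytochrome b5 that passes electrons to P450 enzymes; and Cyp3a41a, a P450 that is abundant in female mouse liver. At an unadjusted limma p under 0.05, 492 genes (3.7%) were higher and 240 (1.81%) lower with the mixture, 5.51% in all. The median log2 change of all genes tested was -0.00. A log2 change here is the difference between group means of log2(TPM + 1), a scale on which changes of genes with low TPM come out smaller.

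All 12 libraries carried hepatocyte transcripts at high level, with Alb between 59552 and 108726 TPM. They held 13180 to 13658 genes of at least 1 TPM each. Xist was at most 1.17 TPM and Ddx3y at least 22.0 TPM, the pattern of male tissue. TPM keeps no read total, so the depth behind these values is unknown. Transcripts of other tissue stood apart in 3 libraries. The summed TPM of the skeletal muscle genes was 850.0 in vehicle replicate 4 and 406 in vehicle replicate 5, against 33.0 to 76.3 in the other 10 libraries. The adrenal cortex genes summed to 109.5 TPM in mixture replicate 6, against 4.51 to 11.7 elsewhere, and the immunoglobulin gene Ighm was at 321 TPM in vehicle replicate 4. Vehicle replicate 5 also lay farthest out on the first principal component, which held 17.6% of the variance. Without these 3 libraries 12768 genes were tested and 4 rose, Cyp1a1, Cyp1a2, Htatip2 and Cyb5a, with 321 genes (2.51%) higher and 160 (1.25%) lower at an unadjusted limma p under 0.05. Counts of gene lists without them stand beside several of the results.

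The promoters of the called genes were searched for the AhR core, since the receptor is what the mixture is known to bind. Windows run from 250 bases before to 50 after each RefSeq start (GRCm38.p6), and 5 of the 6 called genes were searched. The core GCGTG, or CACGC on the other strand, was found in 2 of those 5. It was also present in 54.7% of the 9459 tested genes with a window, and in 32.4% of all 32851 windows of that length, so its presence does not set the called genes apart. The windows of the 3 genes with the smallest p are printed, with core matches in capitals. That of Cyp1a1 (chr9:57697363-57697662, plus strand) holds 1 match, which begins 54 bases before the start. That of Htatip2 (chr7:49758856-49759155, plus strand) holds 2 matches on the opposite strand, 119 and 108 bases before the start, while a second window of this gene, at another RefSeq start (chr7:49759262-49759561), holds none. That of Cyp1a2 (chr9:57683606-57683905, minus strand) holds none, and this says only that these letters are not in this window.
Cyp1a1: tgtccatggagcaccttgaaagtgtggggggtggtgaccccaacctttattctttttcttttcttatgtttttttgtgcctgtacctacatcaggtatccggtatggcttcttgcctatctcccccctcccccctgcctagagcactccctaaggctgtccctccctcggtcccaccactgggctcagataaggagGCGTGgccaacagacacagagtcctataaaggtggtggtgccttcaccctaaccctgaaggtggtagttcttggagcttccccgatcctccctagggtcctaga
Htatip2: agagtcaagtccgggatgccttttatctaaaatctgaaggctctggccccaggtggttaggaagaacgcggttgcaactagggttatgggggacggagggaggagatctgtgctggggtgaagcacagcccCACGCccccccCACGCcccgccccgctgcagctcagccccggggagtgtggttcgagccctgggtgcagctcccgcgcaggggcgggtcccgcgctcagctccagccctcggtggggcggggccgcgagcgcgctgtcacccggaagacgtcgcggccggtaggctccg
Cyp1a2: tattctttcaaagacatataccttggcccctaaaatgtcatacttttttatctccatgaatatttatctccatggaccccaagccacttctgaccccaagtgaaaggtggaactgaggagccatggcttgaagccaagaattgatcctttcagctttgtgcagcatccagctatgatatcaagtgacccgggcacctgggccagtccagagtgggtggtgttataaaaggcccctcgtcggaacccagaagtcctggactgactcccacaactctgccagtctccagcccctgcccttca

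Cyp1a1 and Cyp1a2 lie side by side on chromosome 9 and are read in opposite directions, at chr9:57687928-57703824 and chr9:57676937-57683703 in GENCODE M21 (GRCm38). Cyp1a1 was close to the detection filter in vehicle livers, at 1.19, 1.49, 1.89, 1.89, 1.77 and 2.17 TPM in replicates 1 to 6. With the mixture it was at 86.1, 188, 101, 88.6, 173 and 195 TPM. The exposed livers fell into a lower set, replicates 1, 3 and 4, and a higher one, replicates 2, 5 and 6, and every one of them was far above every vehicle liver. The means of 1.73 ± 0.347 and 139 ± 51.9 TPM (SD, n = 6) differed by 5.60 on the log2 scale (SE 0.20, limma adjusted p = 8.52e-25). Cyp1a2, which is expressed in liver without any inducer, was at 549, 661, 739, 774, 654 and 639 TPM in vehicle livers. With the mixture it was at 2957, 4006, 2738, 2585, 3497 and 3248 TPM. The order of the exposed livers was much like that for Cyp1a1, with replicates 1, 3 and 4 below replicates 2, 5 and 6, and the groups did not overlap. The means of 669 ± 79.5 and 3172 ± 527 TPM (SD, n = 6) differed 4.74-fold, or by 2.24 on the log2 scale (SE 0.13, limma adjusted p = 2.71e-17). Thus Cyp1a2 remained the more abundant of the pair after exposure, on the per-length TPM scale, although its fold change was smaller. RNA came from whole liver, so fewer cells of a type and less RNA per cell cannot be told apart for any gene described here.

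Htatip2 (chr7:49759115-49773975, plus strand) was at 24.6, 26.5, 26.3, 19.5, 21.3 and 19.1 TPM in vehicle livers and at 42.3, 42.0, 36.1, 35.99, 38.0 and 36.7 TPM with the mixture. The exposed livers were close to each other, and the lowest of them was well above the highest vehicle liver, at 26.5 TPM. Its log2 change was 0.74 (SE 0.10, limma adjusted p = 6.23e-06), and it was called in all 21 alternatives to the main fit, as were Cyp1a1 and Cyp1a2. Cyb5a was at 513, 712, 587, 654, 494 and 551 TPM in vehicle livers and at 748, 1019.5, 777, 795, 833 and 795 TPM with the mixture. Replicate 2 was the highest liver in both groups, and the groups were separated by the gap between 712 and 748 TPM. Its log2 change was 0.50 (SE 0.09, limma adjusted p = 0.00234) in the fit of all 48 libraries, with 40 residual degrees of freedom. In a fit of the 12 libraries alone, with 10, the SE was 0.10 and the limma adjusted p 0.357. With a block on replicate number as well, they were 0.07 and 0.192. An antisense gene overlaps Cyb5a, and reads of the pair cannot be told apart unless the counting used strand, which no source states.

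Slc46a3 (chr5:147878437-147894815, minus strand) was at 38.8, 41.7, 63.7, 42.9, 45.5 and 43.8 TPM in vehicle livers and at 62.6, 98.1, 65.8, 74.4, 101 and 90.8 TPM with the mixture. Vehicle livers other than replicate 3 lay within a few TPM of each other, and replicate 3 reached just above the lowest exposed liver, so the groups overlapped. Its log2 change was 0.81 (SE 0.15, limma adjusted p = 0.00968). The call ended without vehicle replicate 1 (adjusted p = 0.0576), without mixture replicate 2 (0.055), without the 3 libraries with other tissue (0.357) and in fits of the 12 libraries alone, with a block on replicate number (0.471) and without one (0.162), with log2 changes of 0.75 to 0.91 over all alternatives.

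Cyp3a41a (chr5:145694049-145720136, minus strand) is nearly silent in males. It was at 0.402, 0.388, 0.638, 0.426, 1.10 and 0.924 TPM in vehicle livers and at 1.17, 0.903, 4.30, 4.12, 4.07 and 4.17 TPM with the mixture. Mixture replicates 3 to 6 stood together near 4 TPM, while replicate 1 was just above the highest vehicle liver and replicate 2 was below vehicle replicates 5 and 6. Its log2 change was 1.22 (SE 0.25, limma adjusted p = 0.0264). It entered the test with exactly 6 libraries at 1 TPM or more, 5 of them exposed, and dropped below that limit in 7 of the 21 alternatives. The call ended in 7 of the other 14: without vehicle replicate 1, 2, 3 or 4 in turn (adjusted p = 0.0964, 0.0519, 0.0661 and 0.0688), with no filter (0.0903), and in fits of the 12 libraries alone, with a block on replicate number (0.393) and without one (0.657). Its near-identical copy Cyp3a41b was below the filter, and reads of such copies can be split between them.

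**Figure D1:**
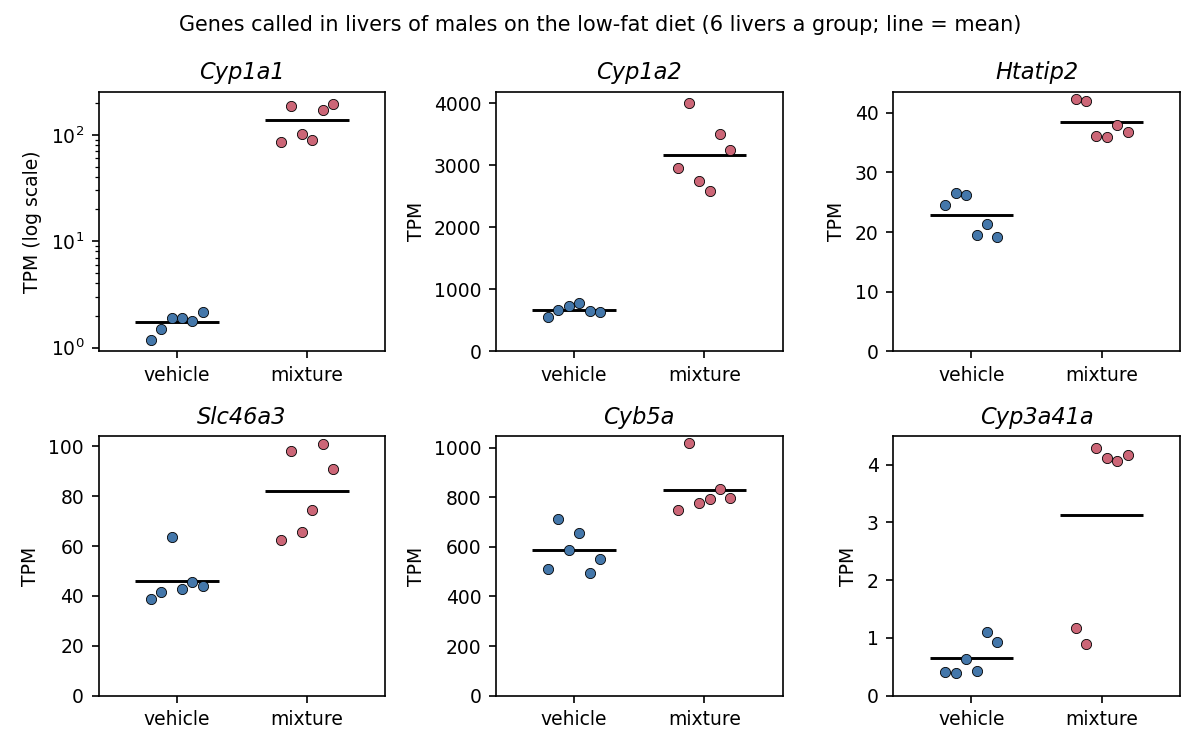
Level of each of the 6 called genes in TPM in the 6 vehicle and 6 mixture livers of LFD males (points are livers, lines are group means, and the axis for Cyp1a1 is logarithmic). The groups are separate for Cyp1a1, Cyp1a2, Htatip2 and Cyb5a, while vehicle replicate 3 for Slc46a3 (63.7 TPM) and mixture replicate 2 for Cyp3a41a (0.903 TPM) fall within the other group.

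A list of 26 genes of the AhR battery, meaning genes that dioxin-like compounds are known to induce or repress in mouse liver, had 17 members that passed the filter. Of these, 4 rose (Cyp1a1, Cyp1a2, Htatip2 and Slc46a3), against 0.0451% of all genes. At an unadjusted limma p under 0.05, 7 were higher and none was lower, against 3.7% and 1.81% of all genes. The median log2 change of the 17 was 0.41, and 15 were above 0. Like the other lists, the battery was chosen with earlier results of these data known, so its counts are not independent of these data. Cyp1a1, Cyp1a2 and Htatip2 were among the 4 members with all 6 mixture livers above all 6 vehicle livers, as 0.0978% of all genes did, and no member had all 6 below, as 0.0301% of all genes did.

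Among members that were not called, Ugt1a9, which conjugates phenols to glucuronic acid, ran from 6.27 to 31.4 TPM (median 14.5) in vehicle livers and from 17.998 to 50.1 TPM (median 31.4) with the mixture. Here the groups overlapped, since vehicle replicate 3 was above mixture replicates 3, 4 and 5. The difference was 0.98 on the log2 scale (SE 0.27, limma adjusted p = 0.391). The Ugt1a genes share exons in one locus, so counts of single members are uncertain.

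Nqo1, a quinone reductase that AhR and Nrf2 both control, was at 4.36 to 6.60 TPM (median 5.97) in vehicle livers and 5.28 to 12.1 TPM (median 8.46) with the mixture, a log2 change of 0.45 (limma adjusted p = 0.574). Mixture replicates 2, 3 and 5 carried that difference, at 12.1, 10.3 and 9.55 TPM, and the other 3 were near the vehicle range. Tiparp, the ADP-ribosyltransferase that marks the receptor for removal, had overlapping groups, at 2.46 to 5.04 and 2.98 to 7.32 TPM, with a log2 change of 0.31 (adjusted p = 0.997). The fatty acid transporter Cd36 had a log2 change of 0.41 and Fmo2 one of 0.49. Another 7 members were between -0.33 (Lrat, which esterifies retinol in stellate cells) and 0.15 (Ugt1a6a). They included the hepatokine Fgf21 at -0.05, the pyruvate dehydrogenase kinase Pdk4 at 0.04, the sulfotransferase Sult2a8 at 0.03, Nfe2l2, which encodes Nrf2, at 0.08, and Ugt1a6b at 0.08, and their limma adjusted p-values were at least 0.909.

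The other 9 members of the battery did not pass the filter. Cyp1b1, the third Cyp1 enzyme, had means of 0.472 ± 0.219 and 0.624 ± 0.373 TPM in vehicle and exposed livers (SD, n = 6). The repressor Ahrr was at 0.0343 and 0.0449 TPM, and Aldh3a1, a classical AhR target of other tissues, at 0.0251 and 0.0489 TPM. Tnfaip8l3 was at 0.697 and 1.03 TPM, and Ugt1a7c, Gsta1, Cyp2s1, Gpr35 and Serpinb2 had means under 1 TPM in both groups. At these levels no comparison was made.

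**Figure D2:**
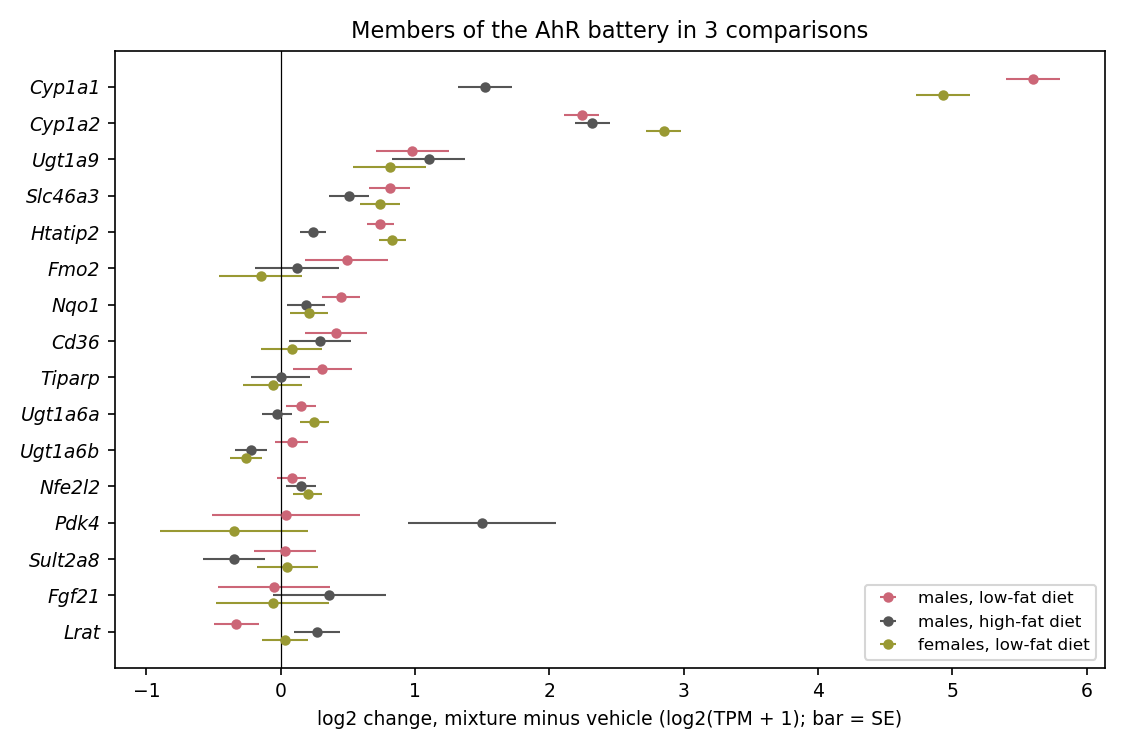
Log2 change, mixture minus vehicle, of 16 of the 17 measured members of the AhR battery in LFD males, HFD males and LFD females (points are fitted changes of log2(TPM + 1), bars 1 SE). Cyp1a1 is the member whose change differs most between males on the LFD (5.60) and on the HFD (1.52), while Cyp1a2 lies at 2.24 and 2.32.

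The receptor itself and the proteins that hold, pair with or limit it showed no call and no member at an unadjusted limma p under 0.05 among 14 measured. Ahr ran from 10.1 to 18.7 TPM (median 16.7) in vehicle livers and from 13.1 to 28.4 TPM (median 15.6) with the mixture, a difference of 0.13 on the log2 scale (SE 0.16, limma adjusted p = 0.997). Its partner Arnt ran from 11.8 to 16.1 and from 10.3 to 14.7 TPM, a log2 change of -0.15. The chaperone genes of the cytoplasmic complex had changes of 0.08 for Ptges3, -0.01 for Hsp90ab1 and 0.02 for Hsp90aa1. Estrogen receptor Esr1, which interacts with AhR, was at -0.26, the coactivators Ncoa1 and Ncoa2 at -0.03 and -0.07, Rela and Relb at 0.03 and -0.07, Klf6 at 0.20 and Parp1 at -0.11. The median of the 14 was 0.00, the same as over all genes.

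Of the 33 gene lists examined, 31 had at least 5 measured members. All were chosen with earlier results of these data known. Lists overlap: the CAR/PXR list shares 7 genes with the female-biased and 6 with the pericentral list, and the fatty acid oxidation list shares 4 with the female-biased one, so the counts below are not independent of each other. Apart from the genes already described as risen, no member of any list passed the adjusted threshold, and the members are described by their levels. Over all genes tested, 0.0451% rose at that threshold. At an unadjusted limma p under 0.05, 3.7% were higher and 1.81% lower.

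**Figure D3:**
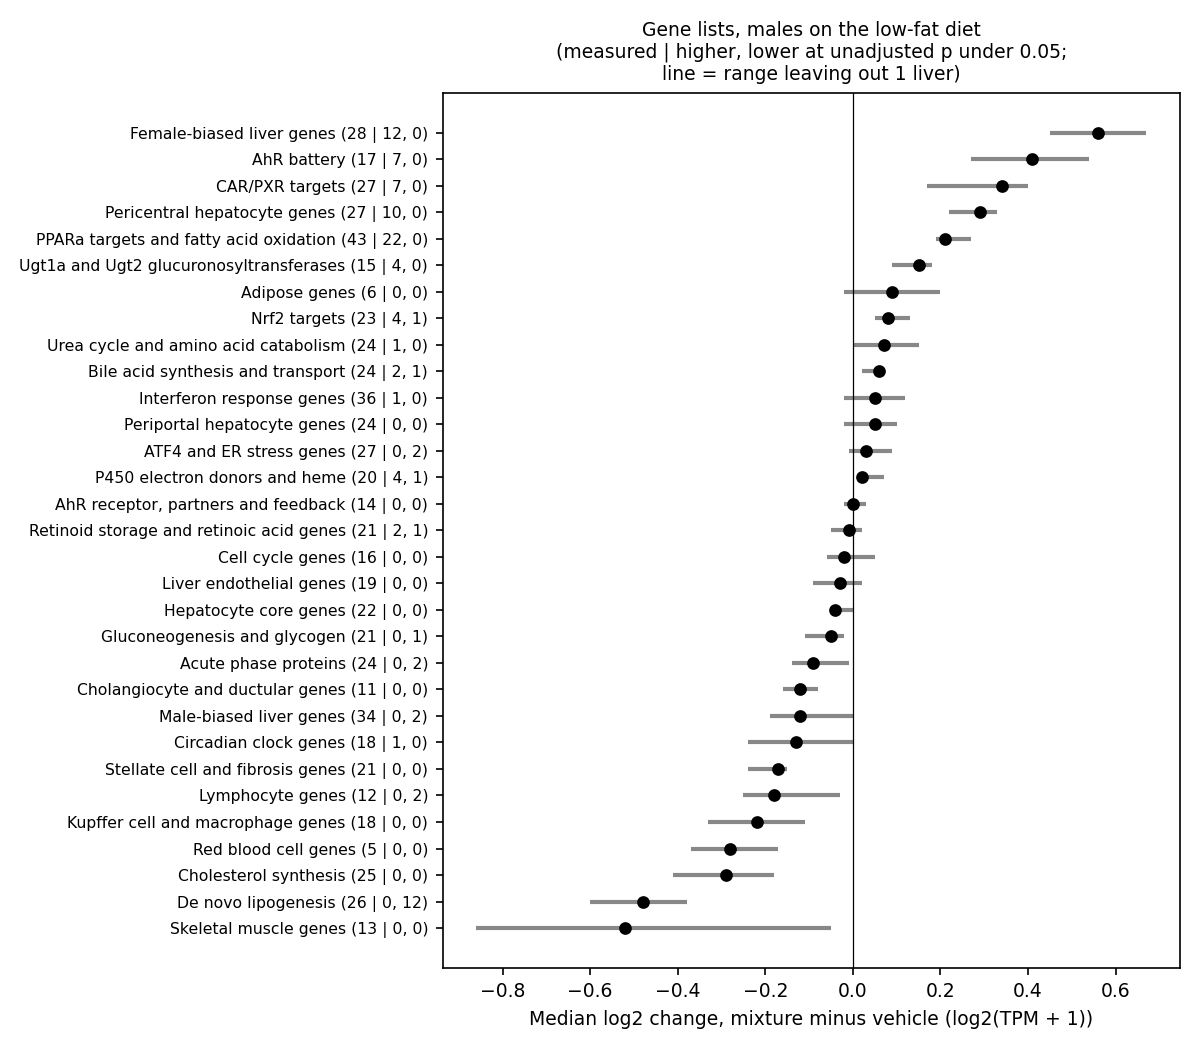
Median log2 change, mixture minus vehicle, of each list with at least 5 measured members in LFD males (dots; grey lines are the range when each of the 12 livers is left out in turn; brackets give members measured and members higher and lower at an unadjusted p under 0.05). Female-biased genes lie highest (0.56), and de novo lipogenesis (-0.48) and skeletal muscle genes (-0.52) lowest.

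Female-biased liver genes are those that female mice express far above males under the female pattern of growth hormone. In exposed males 12 of 28 measured members were higher at an unadjusted limma p under 0.05 and none was lower, against 3.7% and 1.81% of all genes, and 1 was called (Cyp3a41a). The median log2 change was 0.56, with 24 members above 0. For 24 members the group mean changed with the mixture toward the level of LFD vehicle females. Since 26 of the 28 were higher in those females than in vehicle males, this count largely repeats the count above 0. Both directions are measured from the same vehicle male mean, and the share over all genes was not computed. The count covers the direction of change only, not its size. The mean level of the list was 2.29 to 2.91 in vehicle livers and 2.93 to 3.47 with the mixture, on the log2(TPM + 1) scale. Vehicle replicates 3 and 5 were lowest and mixture replicate 1 was the one exposed liver close to the vehicle range, so the groups were separate by only 0.02 between vehicle replicate 4 and mixture replicate 1.

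Cyp2a4, a steroid 15-alpha-hydroxylase, was at 3.62 to 6.97 TPM (median 4.38) in vehicle livers and 6.20 to 20.2 TPM (median 18.1) with the mixture. As for Cyp3a41a, mixture replicates 3 to 6 stood together, between 17.2 and 20.2 TPM, and replicates 1 and 2 were at 6.20 and 8.18 TPM. Its log2 change was 1.37 (SE 0.34, limma adjusted p = 0.222), and reads of the near-identical Cyp2a5 can fall on this gene. Cyp2b9, a phenobarbital-type P450 of female liver, was at 0.922 to 1.95 TPM (median 1.42) in vehicle livers and 2.495 to 8.50 TPM (median 5.77) in exposed ones. All exposed livers were above all vehicle livers, and the log2 change of 1.39 (SE 0.38) had a limma adjusted p of 0.413. In fits of the 12 libraries alone it was 0.037, and 0.184 with a block on replicate number. The bile acid sulfotransferase Sult2a1 was at 0.286 to 2.20 TPM (median 0.908) and 1.95 to 4.55 TPM (median 3.27), a difference of 1.14 on the log2 scale (SE 0.30, limma adjusted p = 0.309).

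These levels stayed far below those of females. LFD vehicle females had 392 ± 127 TPM of Cyp3a41a, 1724 ± 541 of Cyp2a4, 577 ± 62.1 of Cyp2b9 and 306 ± 77.7 of Sult2a1 (SD, n = 6). In exposed LFD males the means of the same genes were 3.12, 15.0, 5.69 and 3.31 TPM. In LFD females the list as a whole had a median log2 change of 0.03 with the mixture, and in HFD males one of 0.24. Male-biased genes had smaller changes, with a median of -0.12. Of 34 measured, none was higher and 2 were lower at an unadjusted p under 0.05, against 3.7% and 1.81% of all genes. These 2 were Moxd1, a monooxygenase-like gene, at 6.79 to 201 TPM with vehicle and 1.54 to 93.8 TPM with the mixture (log2 change -1.85, SE 0.56, limma adjusted p = 0.5), and the growth factor receptor Egfr (log2 change -0.81). Moxd1 varied more than 10-fold within each group, and the groups overlapped.

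**Figure D4:**
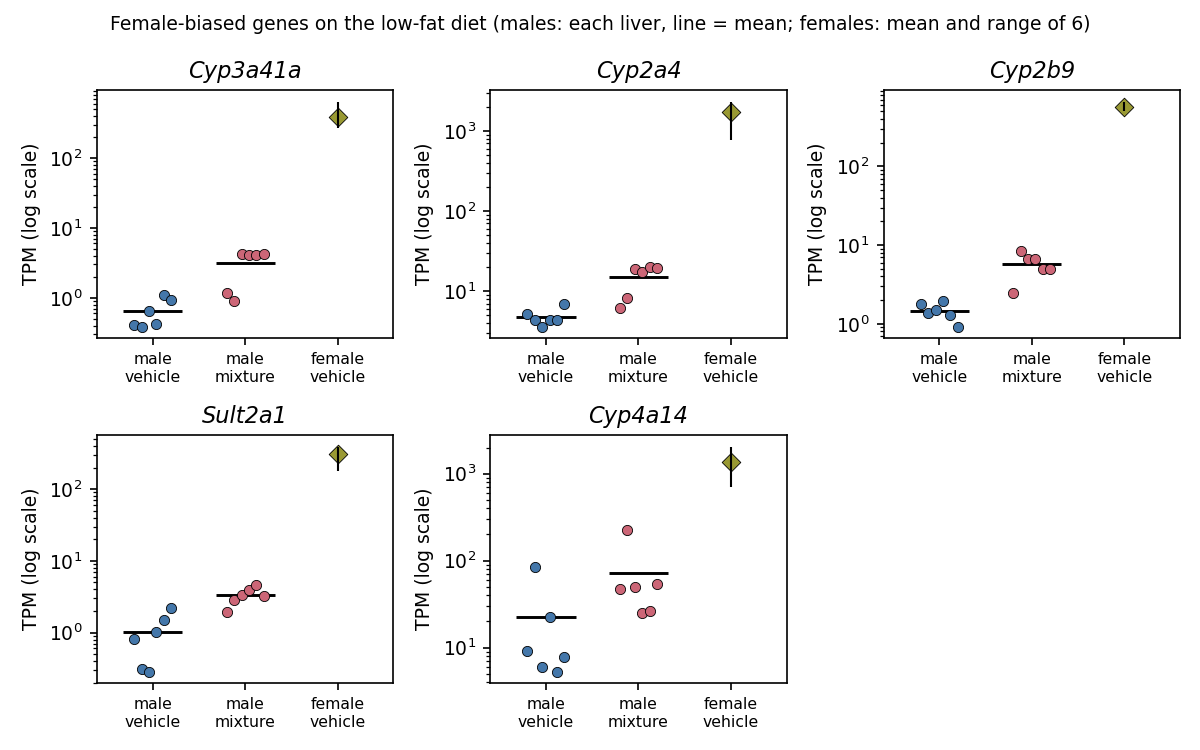
Level of 5 female-biased genes in TPM (log axes) in the vehicle and mixture livers of LFD males (points are livers, lines are means) beside LFD vehicle females (diamond is the mean, bar the range of 6). Exposed males lie above vehicle males for Cyp2b9 without overlap, and all male livers lie below the female range.

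CAR and PXR are the nuclear receptors that answer to drugs such as phenobarbital, and their targets encode P450 enzymes, conjugating enzymes and transporters. Of 27 measured, 7 were higher at an unadjusted limma p under 0.05 and none was lower, against 3.7% and 1.81% of all genes. The 1 member called was Cyp3a41a, where 0.0451% of all genes rose. The median was 0.34. Abcc3, an exporter of glucuronides on the sinusoidal side of hepatocytes, came nearest to a further call. It was at 60.0, 90.1, 41.9, 66.3, 29.97 and 51.6 TPM in vehicle livers and at 98.1, 144, 94.2, 69.1, 72.7 and 96.0 TPM with the mixture. Mixture replicates 1, 2, 3 and 6 were above every vehicle liver, and replicates 4 and 5 were below vehicle replicate 2. The difference was 0.78 on the log2 scale (SE 0.18, limma adjusted p = 0.101). Leaving out single livers moved it between 0.62, without vehicle replicate 5 (adjusted p = 0.658), and 0.93, without vehicle replicate 2 (0.00441). It was also called without mixture replicate 4 (0.0424) or 5 (0.0462), and it was 0.65 without the 3 libraries with other tissue (0.739).

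The P450 Cyp2c29 was at 247 to 481 TPM (median 387) with vehicle and 458 to 682 TPM (median 520.3) with the mixture. All exposed livers but replicate 3 were above all vehicle livers, and the log2 change was 0.53 (SE 0.16, limma adjusted p = 0.465). Cyp2b10, the textbook CAR target, did not pass the filter, with means of 0.512 ± 0.307 TPM in vehicle and 1.47 ± 0.716 TPM in exposed livers (SD, n = 6). The count of CAR/PXR members at an unadjusted p under 0.05 was 12 of 27 without vehicle replicate 4 and 5 of 26 without vehicle replicate 5, where the median was 0.17. It was 5 of 25, with a median of 0.24, without the 3 libraries with other tissue. Of all genes, 4.56%, 2.07% and 2.51% were higher in these fits, in that order.

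Pericentral hepatocytes, which surround the central vein, hold most of the liver's P450 enzymes. Of 27 measured pericentral genes, 10 were higher at an unadjusted limma p under 0.05 and none was lower, against 3.7% and 1.81% of all genes. Cyp1a2 was the 1 member called, where 0.0451% of all genes rose. The median was 0.29, with 25 members above 0. When single livers were left out, the count of higher members ran from 7 to 12, while 2.07% to 5.12% of all genes were higher. Nr1i3, which encodes CAR, was at 30.5 to 95.8 TPM (median 49.0) with vehicle and 55.2 to 108 TPM (median 84.3) with the mixture, a difference of 0.65 on the log2 scale (SE 0.20, limma adjusted p = 0.544). The glutamate transporter Slc1a2 was at 31.5 to 49.2 TPM (median 36.7) and 43.9 to 55.6 TPM (median 48.2), a log2 change of 0.38 (limma adjusted p = 0.638). Both pairs of groups overlapped. The glutamine synthetase gene Glul, which marks the innermost ring of cells, had means of 963 ± 58.5 and 1008 ± 161 TPM (SD, n = 6; log2 change 0.05). None of 24 periportal genes and none of 22 hepatocyte core genes reached an unadjusted p under 0.05 in either direction, with medians of 0.05 and -0.04.

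Genes of fatty acid oxidation and other PPARα targets, which burn fat in mitochondria and peroxisomes, gave the largest count. Of 43 measured, 22 were higher at an unadjusted limma p under 0.05 and none was lower, against 3.7% and 1.81% of all genes. Of the 43, 40 were above 0, and none was called. The median was modest, at 0.21. Cpt2, the inner mitochondrial carnitine transferase, was at 89.3 to 135 TPM (median 98.2) with vehicle and 128 to 148 TPM (median 131) with the mixture. The exposed livers were close to each other, and vehicle replicates 2 and 4, at 135 and 132 TPM, lay among them. The difference was 0.33 on the log2 scale (SE 0.09, limma adjusted p = 0.313), and it moved between 0.28 without vehicle replicate 5 (adjusted p = 1.0) and 0.40 without vehicle replicate 2 (0.0331).

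The omega-hydroxylase Cyp4a14, the thioesterase Acot3 and Cyp4a10 had larger changes and wider spreads. Cyp4a14 was at 9.22, 84.7, 5.95, 22.5, 5.31 and 7.78 TPM in vehicle livers and at 47.0, 225, 49.3, 25.2, 26.1 and 54.5 TPM with the mixture. Replicate 2 was far above the rest in both groups, and without it in the vehicle group the 2 groups would not overlap. Its log2 change was 1.90 (SE 0.46, limma adjusted p = 0.209), and it moved between 1.48 without mixture replicate 2 and 2.42 without vehicle replicate 2 (adjusted p = 0.00103), with an adjusted p of up to 0.918 when single livers were left out. Acot3 was at 0.542 to 6.42 TPM (median 4.09) and 4.26 to 21.1 TPM (median 9.89), a log2 change of 1.49 (limma adjusted p = 0.339). Cyp4a10 was at 15.8 to 235 TPM (median 38.8) and 68.8 to 327 TPM (median 119.5), a log2 change of 1.24 (limma adjusted p = 0.462), which moved between 0.91 without vehicle replicate 5 (adjusted p = 1.0) and 1.67 without vehicle replicate 2 (0.00932). Ppara itself had means of 91.0 ± 14.3 and 91.4 ± 20.8 TPM (SD, n = 6).

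De novo lipogenesis, which builds fatty acids from sugar under control of SREBP1 and ChREBP, was the list with the most genes on the low side. Of 26 measured, 12 were lower at an unadjusted limma p under 0.05 against 1.81% of all genes, none was higher, 1 was above 0 and none was called. The median was -0.48. Srebf1, which encodes SREBP1, was at 249.6, 239.5, 188, 178, 247 and 347 TPM in vehicle livers and at 198, 161, 132, 126, 256 and 148 TPM with the mixture. Mixture replicates 2, 3, 4 and 6 were below every vehicle liver, and mixture replicate 5 was above all but 1 of them. The difference was -0.51 on the log2 scale (SE 0.17, limma adjusted p = 0.743).

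Acacb, the acetyl-CoA carboxylase at the mitochondrial surface, was at 46.9 to 147 TPM (median 109) with vehicle and 33.4 to 83.7 TPM (median 62.8) with the mixture, a log2 change of -0.71 (limma adjusted p = 0.761). The acyltransferase Gpam was at 97.5 to 328 TPM (median 181) and 74.3 to 252 TPM (median 98.9), a log2 change of -0.67. G6pdx, which supplies NADPH, was at 4.25 to 83.2 TPM (median 22.8) and 6.90 to 15.7 TPM (median 8.73), with a limma adjusted p of 0.803. In all 3 genes the groups overlapped and the vehicle livers were the more scattered. Fatty acid synthase Fasn, added after its values were seen, was at 571 ± 366 and 217 ± 109 TPM (SD, n = 6), a log2 change of -1.25.

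The scatter of the vehicle livers was shared across the list. Its mean level was 7.92, 7.76 and 7.63 on the log2(TPM + 1) scale in vehicle replicates 1, 5 and 6, and 6.64, 6.95 and 6.80 in vehicle replicates 2, 3 and 4. The exposed livers, at 6.40 to 7.20, were all below the first 3 and lay on both sides of the latter 3. The count of lower members was 4, 5 and 6 of 26 without vehicle replicate 1, 5 or 6. It was 7 without mixture replicate 3 or 6 and without the 3 libraries with other tissue. Of all genes, 0.907% to 1.71% were lower in these fits. The median of the list stayed between -0.60 and -0.38. For fatty acid oxidation, vehicle replicates 3, 5 and 6 were the low ones, at 6.26, 6.21 and 6.33, and vehicle replicates 1, 2 and 4, at 6.66, 6.99 and 6.82, lay within the exposed range of 6.61 to 7.20. The count of higher members of that list was between 16 and 24 when single livers were left out. Counts over all genes also moved with single livers. Without vehicle replicate 5, 2.07% of genes were higher and 0.907% lower at an unadjusted p under 0.05. Without vehicle replicate 2, 5.12% were higher and 2.89% lower.

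**Figure D5:**
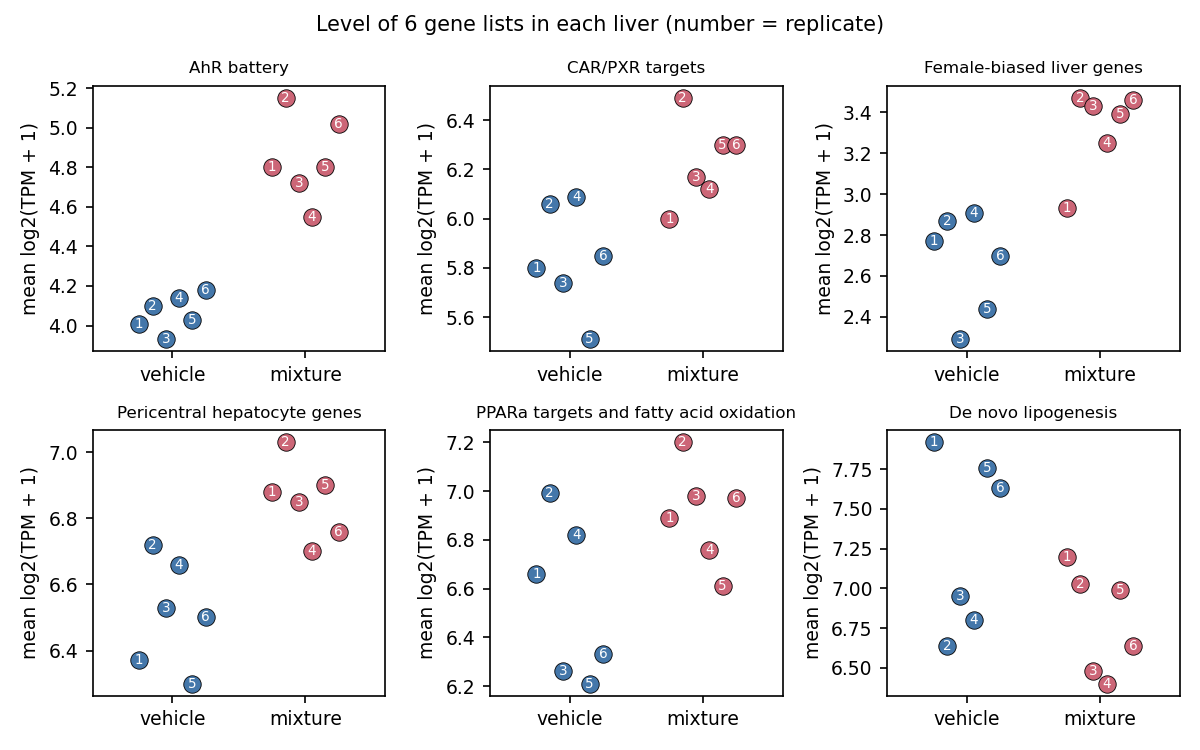
Mean log2(TPM + 1) over the measured members of 6 lists in each liver of LFD males (numbers are replicates, blue vehicle, red mixture). The AhR battery (vehicle at most 4.18, mixture at least 4.55) and, narrowly, female-biased genes (at most 2.91, at least 2.93) separate the groups. The battery mean includes Cyp1a1 (log2 change 5.60) and Cyp1a2 (2.24), and its level without them was not computed. In de novo lipogenesis vehicle replicates 2, 3 and 4 lie among the exposed livers.

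Cholesterol synthesis genes had a median of -0.29 with 3 of 25 members above 0, and none reached an unadjusted limma p under 0.05 in either direction. Over all genes 3.7% were higher and 1.81% lower at that p. Glucuronosyltransferases had 4 of 15 higher and none lower, led after Ugt1a9 by Ugt2b36 (log2 change 0.22), Ugt2b5 (0.33) and Ugt2b34 (0.16), and 1 of 15 higher without the 3 libraries with other tissue. In the list of electron donors of P450 enzymes and heme genes, which also holds epoxide hydrolases, 4 of 20 were higher and 1 lower, the reductase Cyb5r3 (log2 change -0.34). Beside Cyb5a these were Cpox, an enzyme of heme synthesis, at 0.32, and the epoxide hydrolases Ephx1 and Ephx2 at 0.26 and 0.18. The P450 reductase Por and the rate-limiting heme enzyme Alas1 were at 0.34 and 0.44 without passing either threshold. Nrf2 targets had 4 of 23 higher, namely Abcc3, Gsta4 (0.43), Nqo1 and Ephx1, and 1 lower, G6pdx, with a median of 0.08. Smaller counts came from bile acid genes (2 higher and 1 lower of 24, median 0.06), gluconeogenesis (1 lower of 21, -0.05), the urea cycle (1 higher of 24, 0.07), retinoid genes (2 higher and 1 lower of 21, -0.01) and clock genes (1 higher of 18, -0.13). The urea cycle's share, 4.17%, was near the 3.7% of all genes. Without the 3 libraries with other tissue, 2 of 20 members of the electron donor and heme list, 4 of 23 bile acid genes and 1 of 21 retinoid genes were higher. None of 18 clock genes was higher in that fit, where 2.51% of all genes were.

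Lists of inflammation, stress and other liver cells had few members past an unadjusted p of 0.05, where 3.7% of all genes were higher and 1.81% lower. Interferon response genes had 1 of 36 higher (2.78%) and none lower (median 0.05). Acute phase genes had 2 of 24 lower (median -0.09), namely Orm2 (log2 change -0.81) and Apcs (-0.40). Orm2 was at 171 TPM in vehicle replicate 3 against 12.1 to 49.3 TPM in the other 11 livers. When single livers were left out, its log2 change ran from -1.05 to -0.33 and the count of lower acute phase genes from 0 to 5. ATF4 and ER stress genes had 2 of 27 lower, Mthfd2 (-0.35) and Psph (-0.34), with a median of 0.03. Cell cycle genes (median -0.02), liver endothelial genes (-0.03) and cholangiocyte genes (-0.12) had no member at an unadjusted limma p under 0.05. Stellate cell and fibrosis genes had 0 of 21 members above 0 and a median of -0.17, and Kupffer cell and macrophage genes 1 of 18 above 0 and a median of -0.22, with no member of either list at an unadjusted p under 0.05. Lymphocyte genes had 2 of 12 lower, Cd4 (-0.35) and Ighm (-1.30), the latter with 321 TPM in vehicle replicate 4 against 10.8 to 57.4 TPM in the other 11 livers. Skeletal muscle genes had 0 of 13 above 0 and a median of -0.52, and vehicle replicates 4 and 5 held the most of these transcripts. Without the 3 libraries with other tissue, 5 muscle genes were measured, with a median of 0.34, and 0 of 12 lymphocyte genes were lower. Adipose genes (6 measured, median 0.09), red blood cell genes (5, -0.28), adrenal cortex genes (3, 0.48) and the 1 measured pancreas gene (-0.05) had no member past that p. Whether the cells behind these lists differed in number was not tested.

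No gene fell at the adjusted threshold in the fit of all 48 libraries. Those with the smallest p among genes of at least 5 TPM were led by Atg16l2, an autophagy-related gene, at 6.10 to 18.1 TPM (median 10.7) with vehicle and 4.90 to 7.82 TPM (median 7.40) with the mixture. The difference was -0.56 on the log2 scale (SE 0.14, limma adjusted p = 0.24), and it moved between -0.70 without vehicle replicate 4, the lowest of its group (adjusted p = 0.0115), and -0.41 without vehicle replicate 5 (1.0). Atg16l2 overlaps Fchsd2 on the opposite strand. Moxd1 moved between -2.42 without vehicle replicate 2, likewise the lowest (adjusted p = 0.0326), and -1.33 without mixture replicate 2 (0.927). Others were the lipoprotein receptor Lsr (log2 change -0.36), the cytokine Tnfsf12 (-0.36), the sulfotransferase Hs3st3b1 (-0.26) and the channel gene Hcn3 (-0.89), beside Srebf1. Hcn3 overlaps Pklr, a gene of the lipogenesis list on the opposite strand. Mocs2, of molybdenum cofactor synthesis, was the remaining gene of this kind on the high side (log2 change 0.20, limma adjusted p = 0.209).

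The response was set against the same exposure in HFD males and LFD females, which share no library with it. In LFD females 8 genes rose (0.0602% of 13295) and none fell, and 5 of the 6 genes that rose in LFD males were among them, all but Cyp3a41a. Their log2 changes in LFD males and LFD females were 5.60 and 4.93 for Cyp1a1, 2.24 and 2.85 for Cyp1a2, 0.74 and 0.83 for Htatip2, 0.50 and 0.48 for Cyb5a, and 0.81 and 0.74 for Slc46a3. The difference between the sexes was itself tested, and limma called no gene (364 genes, 2.74%, were higher and 202, 1.52%, lower at an unadjusted p under 0.05). For Cyp3a41a it was -1.36 (SE 0.35, adjusted p = 0.999). Genes higher in both at an unadjusted p under 0.05 numbered 82, of 492 in males and 946 (7.12%) in females, and genes lower in both 17, of 240 and 408 (3.07%). Across the 13295 genes the log2 changes had a Pearson correlation of 0.24, or 0.19 without the 2 Cyp1a genes, with groups of 6 livers on each side and one pooled estimate of spread.

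In HFD males 10 genes rose (0.0752%) and 6 fell (0.0451%), and the genes that rose in both diets were Cyp1a1 and Cyp1a2. Skeletal muscle genes had a median log2 change of 2.31 in HFD males. Genes higher in both at an unadjusted p under 0.05 numbered 45, of 492 on the LFD and 867 (6.52%) on the HFD, and genes lower in both 6, of 240 and 403 (3.03%). The correlation across genes was -0.05. The test of the difference between diets called 4 genes, 2 higher (0.015%) and 2 lower (0.015%), with 4.38% and 3.14% of genes higher and lower at an unadjusted p under 0.05. The count of calls was larger without the libraries of other groups with most muscle transcripts, as given in a later section. Cyp1a1 went from 0.846 ± 0.260 to 4.66 ± 2.47 TPM on the HFD (SD, n = 6), and its change was smaller there by 4.08 on the log2 scale (SE 0.29, limma adjusted p = 1.25e-13). This was the one difference called in each of the 20 alternatives as well. Cyp1a2 went from 331 ± 77.5 to 1644 ± 306 TPM on the HFD, and its changes differed by 0.09 (SE 0.18, adjusted p = 0.953). For Htatip2 the HFD change was 0.24 and the difference -0.50 (SE 0.14, adjusted p = 0.323), for Slc46a3 0.51 and -0.30 (SE 0.22, adjusted p = 0.8), and for Cyb5a 0.21 and -0.29 (SE 0.12, adjusted p = 0.543).

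The other 3 differences were at an adjusted p of 0.045 each, and 12 of the 20 alternatives left Cyp1a1 as the one call. The chemokine Cxcl14 was at 2.17 to 8.74 TPM with vehicle and 1.28 to 2.49 with the mixture in LFD males, a log2 change of -0.59, against 0.86 in HFD males. Arhgap10, a GTPase-activating protein, had log2 changes of -0.27 and 0.73, and the predicted gene Gm12718 of 0.35 and -1.66. Among the lists, de novo lipogenesis had median log2 changes of -0.48 in LFD males, -0.07 in HFD males and -0.48 in LFD females. Fatty acid oxidation had 0.21, 0.08 and 0.10 in that order, pericentral genes 0.29, -0.16 and 0.09, and CAR/PXR targets 0.34, -0.13 and 0.04. These list differences were not tested. The labels do not say whether each diet was a cohort of its own, and a cohort and the diet cannot be told apart.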

How the data were processed

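The labels' protocols name the RNeasy plus mini kit for liver RNA and pre-made poly(A) libraries. FastQC, Trimmomatic 0.36, STAR 2.5.2b, DESeq2 and the GRCm38 build are listed in the submitters' processing notes without roles. The read counter, the annotation, gene lengths and strand have no source here. The authors deposited TPM per library without pooling, and each column sums to 1000000, so depth is unknown and no interval that needs it was computed. Of 49315 genes, 174 with a blank name and 191 with a shared name were called by identifier.

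The test was limma 3.58.1 (R 4.3.3), moderated with an intensity trend, on log2(TPM + 1). One mean per group was fitted to all 48 libraries (8 groups, 40 residual degrees of freedom), and p-values were adjusted by Benjamini-Hochberg over the 13295 genes that reached 1 TPM in 6 or more of the 12 libraries. The labels number the libraries separately and call them replicates, without stating that each is 1 animal, so p-values cover the spread among libraries. Coordinates are from GENCODE M21 (GRCm38), where 13266 tested identifiers matched, and promoters from RefSeq.

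The comparison, the gene lists and the rule for named genes were chosen with earlier results of these data known. Named genes are those called, all measured AhR battery and receptor genes, the 8 with the smallest p in each direction with at least 5 TPM in the higher group, and the leading 4 of each list with at least 3 times the share of all genes at an unadjusted p under 0.05. Others were chosen after their values were seen. Some genes that the rule names are not reported here. The alternatives were a trimmed-mean scaling, no filter, a filter over all 48 libraries, a pseudocount of 0.1, a fit of the groups compared, a block on replicate number, and leaving out libraries. The procedure was tested on simulated data with independent normal noise and changes only in genes above the lowest levels. Those data held no outlying liver, other tissue or scatter shared by a list, so that test says nothing about them.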

Additional observations from a re-analysis of the deposited data

Results flagged for a closer look

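Single livers stood apart from the other 5 of their group for 11 of the 166 groups examined (6.63%, where about 1 in 20 is what chance gives). Mixture replicate 2 accounts for 5 of them: it was highest for Cyb5a (1019.5 TPM), Cyp4a14 (225 TPM), Cyp2c29 (682 TPM) and the predicted gene Gm11695 (8.81 TPM), and lowest for Esr1 (1.24 TPM). Mixture replicate 3 was highest for Cpt2 (148 TPM). Among vehicle livers, replicate 3 was highest for Slc46a3 (63.7 TPM) and replicate 5 for Hsp90aa1 (91.1 TPM). Replicate 1 was lowest for Ahr (10.1 TPM), replicate 5 for Ugt2b36 (401 TPM) and replicate 6 for Taf13 (8.61 TPM). Without mixture replicate 2 the log2 change of Cyb5a was 0.44 (limma adjusted p = 0.0196) and that of Slc46a3 was 0.76 (adjusted p = 0.055).

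The mixture's effect differed between HFD and LFD males, by limma's test of the difference, for Cyp1a1 (-4.08), Gm12718 (-2.01), Cxcl14 (1.44) and Arhgap10 (1.00), given as the HFD minus the LFD log2 change.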

How the results depend on the processing

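Cyp1a1, Cyp1a2 and Htatip2 were called in all 21 alternatives, with log2 changes of 5.48 to 6.18, 2.16 to 2.29 and 0.67 to 0.78. The count of 6 genes that rose was 10 with a pseudocount of 0.1 and 4 to 11 when single livers were left out, where vehicle replicate 2 gave the 11 and mixture replicate 5 gave 9. The count of genes that fell was 0 to 1 when single livers were left out and 0 in the other alternatives. The count of 4 differences between diets was 1 with trimmed-mean scaling, with a filter over all 48 libraries, with a pseudocount of 0.1, in a fit of the groups compared and without vehicle replicates 4 and 5 and mixture replicate 6. It was 2 with no filter, 13 without the 3 libraries of other groups with most muscle transcripts, and 1 to 9 when single livers were left out. The count of 0 differences between the sexes was the same in all alternatives.

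Replicate numbers did not pair the libraries: deviations of same-numbered livers correlated between -0.105 and 0.254, and only replicate 2 correlated best with its own number. With the replicate number as a block, 6 genes rose in the fit of 48 libraries and 3 in the fit of 12.

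Some genes far from any threshold changed sign when single livers were left out. Their ranges were -0.02 to 0.20 for Ahr, -0.30 to 0.25 for Fgf21, -0.03 to 0.11 for Hsp90aa1, -0.05 to 0.03 for Hsp90ab1, -0.09 to 0.02 for Ncoa1, -0.15 to 0.00 for Ncoa2, -0.00 to 0.15 for Nfe2l2, -0.09 to 0.24 for Pdk4, -0.03 to 0.05 for Rela and -0.02 to 0.07 for Sult2a8. Without vehicle replicates 4 and 5 and mixture replicate 6, Hsp90ab1 was at 0.05, Hsp90aa1 at 0.16 and Pdk4 at 0.30. The cause was not tested. Depth is unknown from TPM, so what it limits could not be set.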

Other observations

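In all, 13 genes (0.0978%) had all 6 mixture livers above all 6 vehicle livers and 4 (0.0301%) had all 6 below. Some of those not described above are named here, after their values were seen. Mpc2, a subunit of the mitochondrial pyruvate carrier, was at 26.3 to 35.6 TPM with vehicle and 35.8 to 42.7 TPM with the mixture (log2 change 0.25, limma adjusted p = 0.434). Crls1, which makes cardiolipin, was at 29.2 to 39.7 and 39.8 to 44.9 TPM (0.26). Nags, which makes the activator of the urea cycle, had 44.8 TPM as both its highest vehicle and its lowest mixture value after rounding (0.18). Tmem243, Hint3 and Taf13 had log2 changes of 0.23, 0.17 and 0.25, and Gm11695 one of 1.31. The 4 on the low side were Efnb2, an ephrin ligand (-0.17), the myosin gene Myo7a (-0.18), 2810030D12Rik (-0.31) and Gm26484 (-1.56). None of the genes named in this paragraph was called.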
